A study of Mus musculus with 18 samples.

Results

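The miR-17-92 cluster is a group of 6 microRNA hairpins cut from a single long non-coding transcript, Mir17hg, and its 6 main mature products were followed in mouse liver. They are listed as mmu-miR-17-5p, mmu-miR-18a-5p, mmu-miR-19a-3p, mmu-miR-20a-5p, mmu-miR-19b-3p and mmu-miR-92a-3p, and the species prefix is left out from here on. They were taken by name, as 6 of the 758 mature miRNAs in the deposited expression table, and all 6 were above 0 in all 18 libraries. Small RNA was sequenced from frozen liver of the inbred mouse strain C57BL/6J, wild type, after regimens that began at 5 weeks of age, and tissue was taken at 62 weeks. The 18 libraries form 6 groups of 3, made of an LF or an HF diet given alone, with CR (LF+CR, HF+CR) or with Ex (LF+Ex, HF+Ex). The labels leave these codes unexplained; they are taken to stand for a low-fat diet (LF), a high-fat diet (HF), calorie restriction (CR) and exercise (Ex). All groups share the strain, genotype, tissue and age, and no transgene or drug is named. Whether each library is an animal of its own is not stated, so p-values measure the spread between libraries, which may be technical.

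The primary transcript of the cluster is cut in the nucleus by the Drosha complex into hairpins. Dicer then trims these to mature strands, and either arm can be loaded into Argonaute. A loaded miRNA finds messenger RNAs mainly through bases 2 to 8 from its 5′ end, the seed, so that miRNAs with the same seed share many predicted targets. The cluster is a textbook example of a MYC-activated and E2F-linked polycistron, known for promoting proliferation and survival. Since the 6 hairpins are transcribed together, the design allows 2 questions to be asked of the mature products: which of them differ between regimens, and how far they move together.

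In GRCm38, Mir17hg lies on the plus strand of chromosome 14 at chr14:115042879-115046727 and is annotated as a lincRNA with 1 transcript of 2 exons. All 6 hairpins fall in exon 2, within 836 bp, from chr14:115043671-115043754 for Mir17 to chr14:115044427-115044506 for Mir92-1. The 6 mature sequences are shown here because the members are grouped by shared seed in what follows. They come from RefSeq on GRCm38.p6, are printed 5′ to 3′ in chromosomal order, and carry the seed in capitals.
miR-17-5p: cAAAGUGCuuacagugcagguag
miR-18a-5p: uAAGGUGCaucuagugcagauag
miR-19a-3p: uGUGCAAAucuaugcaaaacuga
miR-20a-5p: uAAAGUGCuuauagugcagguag
miR-19b-3p: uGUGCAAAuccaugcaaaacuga
miR-92a-3p: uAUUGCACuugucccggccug

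The 6 products carry 4 seeds. miR-17-5p and miR-20a-5p share AAAGUGC and differ at 2 positions outside it, C1U and C12U, written as the miR-17-5p base, the position counted from the 5′ end and the miR-20a-5p base. miR-19a-3p and miR-19b-3p share GUGCAAA and differ by a single substitution, U11C. The seed of miR-18a-5p, AAGGUGC, is 1 substitution, G4A, away from that of miR-20a-5p, and miR-92a-3p stands alone within the cluster with AUUGCAC. A single substitution also separates miR-17-5p from miR-106a-5p (U10A), which is made from the paralogous cluster on chromosome X, so reads of these near-identical strands could be split between entries by the counting, which the sources used here do not describe.

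The Mir17 hairpin, the first in the transcript, is printed because both of its arms were measured at similar levels. Capitals mark the mature 5p arm and then the mature 3p arm in the 84 bases of chr14:115043671-115043754, plus strand.
Mir17: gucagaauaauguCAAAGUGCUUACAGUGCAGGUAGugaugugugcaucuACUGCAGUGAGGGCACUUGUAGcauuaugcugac

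The identity of the tissue and the libraries was checked first. Reads on listed miRNAs, as implied by the steps of the deposited values, ranged from 2.38 megareads (HF+Ex 1) to 10.5 megareads (LF+Ex 2). The 3 hepatocyte miRNAs miR-122-5p, miR-192-5p and miR-194-5p summed to between 276091 and 380261 RPM (a miRNA's reads scaled to the library total) over the 18 libraries. LF 1 and HF+CR 3 stood apart in the sum of 8 epithelial miRNAs (6686 and 8424 RPM, against at most 3993 RPM elsewhere). They also had the highest sums of 8 leukocyte and Kupffer miRNAs (8511 and 9761 RPM), with HF 2 close behind at 8021 RPM. The pancreatic miRNAs summed to 333 RPM in LF+CR 1 and 116 RPM in HF+CR 1, against at most 40.05 RPM elsewhere, and the neuronal ones to 241 RPM in HF+CR 2, against at most 94.9 RPM elsewhere. Each member rested on at least 180 implied reads in every library, the lowest being miR-17-5p in HF+Ex 1.

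The 6 products of the cluster differed widely in level. miR-19b-3p was the highest, with a mean of 7686 RPM and a range of 4639 to 10275 RPM over the 18 libraries, and ranked 27 among the 758 miRNAs by mean. miR-92a-3p followed at 1888 RPM (1145 to 3206), then miR-19a-3p at 1320 RPM (806 to 1881) and miR-20a-5p at 953 RPM (515 to 1439). miR-18a-5p and miR-17-5p were far lower, at 95.3 RPM (67.8 to 146) and 89.8 RPM (47.9 to 117). As a share of the 6-miRNA sum, miR-19b-3p made up 63.7% on average, miR-92a-3p 15.9%, miR-19a-3p 10.9%, miR-20a-5p 7.93%, miR-18a-5p 0.807% and miR-17-5p 0.749%. The members thus spanned nearly the same relative range, with the highest library between 2.15 and 2.80 times the lowest for each, while their absolute levels were far apart. RPM of mature miRNAs of 21 to 23 bases can be compared between miRNAs without a length correction, though ligation preferences of small RNA libraries were not assessed.

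**Figure D1:**
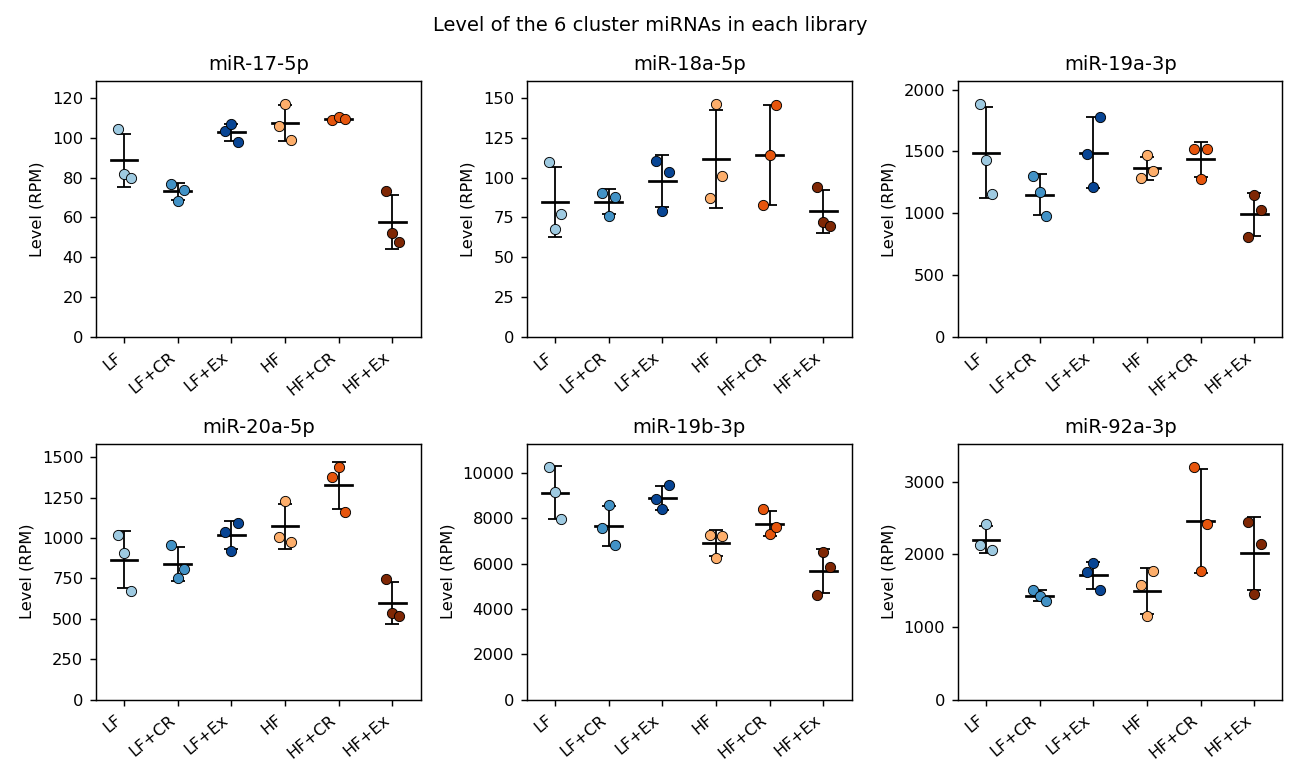
Level of each cluster miRNA in RPM (linear axes starting at 0) by group; points are the 3 libraries of a group in replicate order, the bar is the group mean and the whiskers are 1 SD. The 3 HF+Ex libraries are lowest for miR-20a-5p as a group (515 to 748 RPM, against 975 to 1231 RPM in HF), whereas for miR-92a-3p they lie at 1461 to 2445 RPM, within the range of the other groups.

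**Figure D2:**
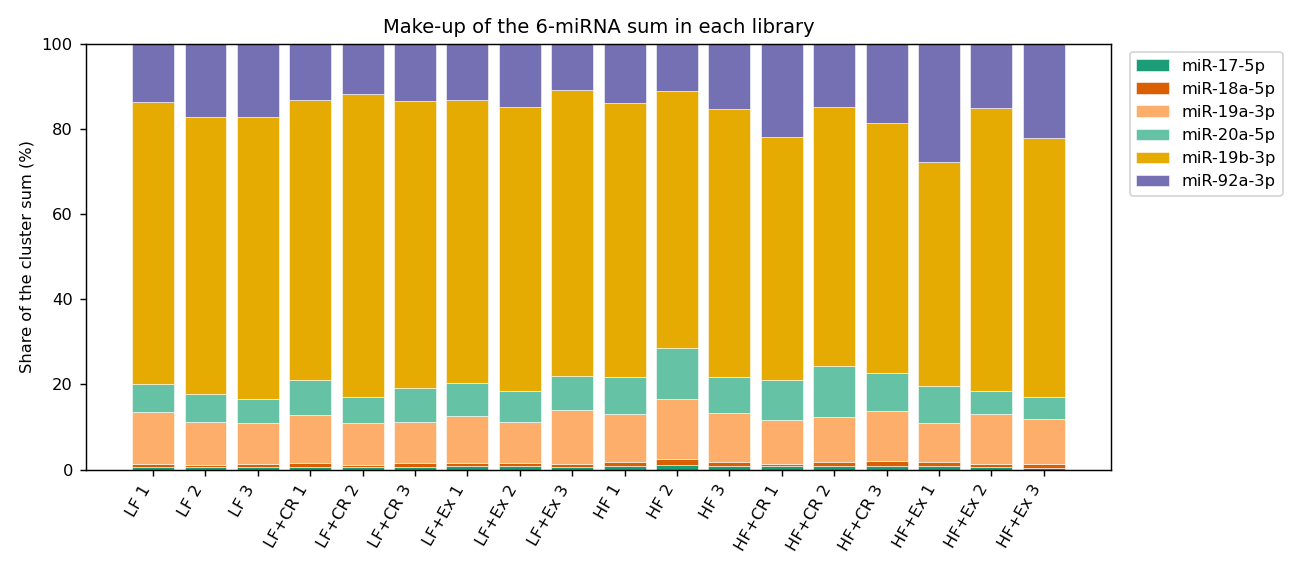
Make-up of the sum of the 6 cluster miRNAs in each of the 18 libraries, as a stacked share in percent. miR-19b-3p takes 52.7% (HF+Ex 1) to 71.0% (LF+CR 2) and miR-92a-3p 10.8% to 27.8% of the sum.

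Of the 5 pairwise comparisons, HF+Ex against HF was the one with called members: the 2 products with the AAAGUGC seed were lower in HF+Ex than in HF. miR-17-5p read 106, 117 and 99.0 RPM in HF 1, 2 and 3 and 73.2, 52.0 and 47.9 RPM in HF+Ex 1, 2 and 3. miR-20a-5p read 1006, 1231 and 975 RPM in HF and 748, 534 and 515 RPM in HF+Ex. For both, all HF+Ex libraries lay below all HF libraries, and HF+Ex 2 and 3 lay close together below HF+Ex 1.

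On log2(RPM + 1), in a fit of all 18 libraries with limma and Benjamini-Hochberg adjustment over the 351 miRNAs tested, the difference was -0.90 for miR-17-5p (SE 0.17, 95% interval -1.26 to -0.55, adjusted p = 0.0235), a fold of 0.534. It was -0.85 for miR-20a-5p (SE 0.19, 95% interval -1.26 to -0.45, adjusted p = 0.0483), a fold of 0.554. These 2 members were called at an adjusted p under 0.05, out of 3 miRNAs called in all, so that 0.855% of the tested miRNAs were called in this comparison, and they ranked 1 and 3 by p. Both calls rested on few libraries: of the 6 omissions of a single HF or HF+Ex library, 1 kept the call of miR-17-5p and 1 that of miR-20a-5p. Without HF 1, 2 or 3 the adjusted p of miR-17-5p by the same limma fit was 0.0550, 0.0891 or 0.0675, and without HF+Ex 2 or 3 it was 0.209 or 0.233, while without HF+Ex 1 it was 0.00222.

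The other 4 members did not pass in this comparison. miR-19a-3p, which shares its seed with miR-19b-3p, read 1282, 1468 and 1339 RPM in HF and 806, 1144 and 1024 RPM in HF+Ex, again without overlap, with a log2 difference of -0.47 (SE 0.20, limma adjusted p = 0.525). miR-18a-5p, with the AAGGUGC seed, differed by -0.48 (SE 0.25, limma adjusted p = 0.600), and the dominant miR-19b-3p by -0.30 (SE 0.14, limma adjusted p = 0.573). The last hairpin of the transcript went the other way in its estimate: miR-92a-3p was at +0.42 (SE 0.23, 95% interval -0.06 to 0.90, limma adjusted p = 0.600). Counting values only, 5 of the 6 members were below 0, against 51.3% of the 351 tested miRNAs, and the median of the 6 was -0.47 against -0.01 for all tested. All HF+Ex libraries lay below all HF libraries for 3 members (miR-17-5p, miR-19a-3p and miR-20a-5p), where 8.26% of tested miRNAs did so.

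**Figure D3:**
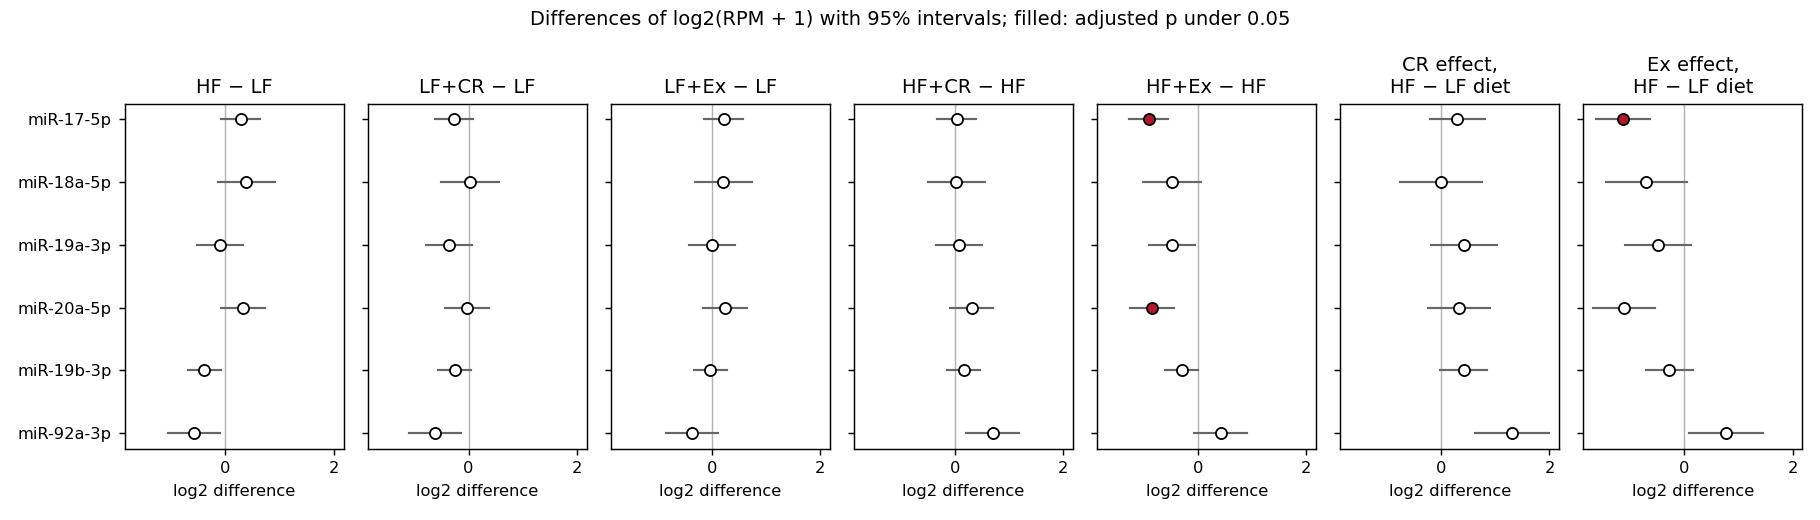
Differences of log2(RPM + 1) for the 6 members in the 5 pairwise comparisons and in the 2 differences between diets, with limma 95% intervals; filled points have an adjusted p under 0.05 over 351 miRNAs. Filled are miR-17-5p and miR-20a-5p in HF+Ex against HF (-0.90 and -0.85) and miR-17-5p in the difference of the Ex effect (-1.12).

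Markers of other cell types were read beside this comparison, and none of the 2 endothelial, 8 epithelial and 8 leukocyte and Kupffer miRNAs was called. The sum of the 2 arms of miR-126, an endothelial miRNA, was 19096 to 20812 RPM in HF+Ex and 16629 to 18423 RPM in HF, without overlap, and the epithelial sum was 1122 to 1432 RPM against 1576 to 1784 RPM. The leukocyte and Kupffer sum overlapped, at 5612 to 7916 RPM in HF+Ex and 6276 to 8021 RPM in HF, and none of the markers of these 3 lists was at 0 in all libraries of either group. HF+Ex 1 was the shallowest library and held 387 RPM of miR-690, an entry at 11.7 to 299.6 RPM in the other 17 libraries. The part of these markers and of depth in the result was not tested, and in bulk liver fewer cells of a type and less RNA per cell cannot be told apart. The call of miR-17-5p was kept without the 3 shallowest libraries (HF+Ex 1, HF+CR 3 and HF+CR 1). That cannot decide on depth, since HF+Ex 1 was the HF+Ex library nearest to HF for this miRNA. The HF+CR libraries do not enter the difference of means, but they share in the spread estimated from all 18 libraries. Without HF+CR 1 or HF+CR 2, miR-20a-5p lost its call in HF+Ex against HF (limma adjusted p = 0.0728 or 0.0619).

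On the LF diet neither of these 2 members passed the test with exercise. miR-17-5p read 104, 81.9 and 80.0 RPM in LF and 103, 107 and 97.9 RPM in LF+Ex, a log2 difference of +0.22 (SE 0.17, 95% interval -0.14 to 0.57, limma adjusted p = 0.554). miR-20a-5p read 1018, 906 and 670.2 RPM in LF and 1039, 921 and 1094 RPM in LF+Ex, a difference of +0.25 (SE 0.19, 95% interval -0.15 to 0.66, limma adjusted p = 0.552). LF 1 sat with the LF+Ex libraries for both, so the groups overlapped. No miRNA of the 351 was called in this comparison (limma, 0% called, with 41 miRNAs at an unadjusted p under 0.05), and miR-92a-3p was the sole member whose LF+Ex libraries (1755, 1877 and 1513 RPM) all lay below the LF libraries (2125, 2414 and 2064 RPM), where 15.1% of tested miRNAs did so.

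The difference between diets in the exercise effect was tested as an interaction. For miR-17-5p the effect on the HF diet minus that on the LF diet was -1.12 on the log2 scale (SE 0.24, 95% interval -1.63 to -0.62, limma adjusted p = 0.0286), 1 of 3 calls among 351 miRNAs (0.855%). miR-20a-5p had nearly the same estimate, -1.10 (SE 0.27, 95% interval -1.67 to -0.53), and missed the threshold at a limma adjusted p of 0.0621. miR-18a-5p was at -0.69 (limma adjusted p = 0.357), miR-19a-3p at -0.48 (0.390), miR-19b-3p at -0.27 (0.505) and miR-92a-3p at +0.78 (0.216). The AAAGUGC members had the lowest of these 6 estimates and miR-92a-3p the highest, and the HF and HF+Ex libraries enter both this comparison and HF+Ex against HF. The call of miR-17-5p held in 2 of the 12 fits that left out 1 library of the groups compared. It was lost without LF 2, LF 3, any LF+Ex library, any HF library, HF+Ex 2 or HF+Ex 3. Over all 18 single omissions, those of LF+CR and HF+CR libraries included, it held in 8, with a limma adjusted p of 0.00254 to 0.116.

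Calorie restriction called no member on either diet. In LF+CR against LF, 22 of the 351 miRNAs were called (6.27%), none of them in the cluster, and the 6 members had a median of -0.26 against -0.32 for all tested, which rescaling moved to +0.07 against +0.01. On the HF diet, HF+CR against HF, limma called none (0% called, with 53 at an unadjusted p under 0.05), and all 6 members were above 0, from +0.03 for miR-18a-5p to +0.70 for miR-92a-3p. Of all tested miRNAs 56.7% were below 0 there, with a median of -0.05. miR-17-5p was the least variable member on the restricted HF diet, at 108.7, 110.3 and 109.6 RPM, next to 106, 117 and 99.0 RPM in HF, and its log2 difference was +0.03 (95% interval -0.32 to 0.39). Averaged over both diets, restriction called 23 miRNAs (6.55%) and exercise none (0%, with 12 at an unadjusted p under 0.05), and no member was among them.

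miR-92a-3p was the member whose estimates differed most between the diets under restriction. It read 2125, 2414 and 2064 RPM in LF and 1508, 1434 and 1355 RPM in LF+CR, without overlap, as was the case for 24.8% of tested miRNAs in this direction, and the log2 difference was -0.62 (SE 0.23, limma adjusted p = 0.106). On the HF diet it read 1579, 1145 and 1771 RPM in HF and 3206, 1766 and 2415 RPM in HF+CR, a difference of +0.70 (SE 0.23, limma adjusted p = 0.154). The HF+CR libraries were spread widely, and HF+CR 2 fell inside the HF range.

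The CR effect of miR-92a-3p on the HF diet minus that on the LF diet was +1.32 (SE 0.32, 95% interval 0.63 to 2.0, limma adjusted p = 0.0794). It ranked 4 by p, just after the 3 miRNAs called (0.855%), and passed without HF+CR 2 (limma adjusted p = 0.0203) or without HF+Ex 2 (0.0425). The other 5 members were at +0.01 (miR-18a-5p, which turned to -0.27 with rescaled RPM) to +0.43 (miR-19a-3p), and the median of all tested miRNAs was +0.28. This comparison moves with scaling: after division of the RPM by size factors (median of ratios), which shifted the median of all miRNAs by -0.26, miR-92a-3p was at +1.04 (limma adjusted p = 0.203). Without the 3 shallowest libraries it was at +0.88 (limma adjusted p = 0.327). The leukocyte and Kupffer sum was 2528 to 8511 RPM in LF, 2350 to 3130 RPM in LF+CR, 6276 to 8021 RPM in HF and 3633 to 9761 RPM in HF+CR, and its part in this difference was not tested, nor was that of the pancreatic miRNAs in LF+CR 1 and HF+CR 1 or of the neuronal ones in HF+CR 2.

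The HF diet itself, averaged over the 3 regimens, called 1 member, the abundant miR-19b-3p, and in the lower direction. It read 10275, 9189 and 7958 RPM in LF, 7584, 8606 and 6807 RPM in LF+CR, and 8882, 8408 and 9465 RPM in LF+Ex. On the HF diet it read 7292, 6275 and 7234 RPM in HF, 8401, 7318 and 7616 RPM in HF+CR, and 4639, 6523 and 5872 RPM in HF+Ex. Within a regimen, the HF libraries all lay below the LF libraries, as was the case for 8.55% of tested miRNAs. The HF+Ex libraries all lay below the LF+Ex libraries, for which the share over all tested miRNAs was not computed. HF+CR and LF+CR overlapped, and the mean was higher in HF+CR (7779 RPM) than in LF+CR (7666 RPM).

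The averaged log2 difference of miR-19b-3p was -0.34 (SE 0.083, 95% interval -0.52 to -0.17, limma adjusted p = 0.0132), a fold of 0.788. In this comparison 65 of 351 miRNAs were called (18.5%), of which 9 were lower (2.56%), and the median of all tested was +0.19. With rescaled RPM the difference was -0.55 (limma adjusted p = 0.0115). The call was kept in all 18 single omissions and was lost without the 3 shallowest libraries, all of them on the HF diet (limma adjusted p = 0.0701). Its seed partner miR-19a-3p was at -0.12 (SE 0.12, limma adjusted p = 0.469), and the remaining 4 members were at +0.00 to +0.16. Rescaling turned the estimates of those 4 below 0, to between -0.20 and -0.05, with none called. Beside this, 6 of the 8 leukocyte and Kupffer miRNAs were called higher on the HF diet and all 8 were above 0, while 2 of the 8 epithelial miRNAs were called lower and all 8 were below 0. Of the 2 endothelial miRNAs 1 was called higher, as was 1 of the 4 stellate and mural miRNAs, of which 2 were below 0. Over all tested miRNAs, 16% were called higher and 28.5% were below 0. The part of those cells in the result was not tested.

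In HF against LF alone no member was called. miR-19b-3p was at -0.39 (SE 0.14, limma adjusted p = 0.320) and miR-92a-3p at -0.57 (SE 0.23, limma adjusted p = 0.341), both with all HF libraries below all LF libraries, as were 8.55% of tested miRNAs. miR-17-5p, miR-18a-5p and miR-20a-5p were at +0.28, +0.39 and +0.32, and miR-19a-3p at -0.10. One miRNA of the 351 (0.285%) was called, and it was not a member.

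The order of the groups by mean level differed between the members. miR-17-5p ran from HF+CR (109.6 ± 0.808 RPM, SD, n = 3) through HF (107 ± 9.01), LF+Ex (103 ± 4.48), LF (88.7 ± 13.5) and LF+CR (73.0 ± 4.32) to HF+Ex (57.7 ± 13.6), and LF and LF+CR were the sole neighbours whose libraries did not overlap. miR-20a-5p had the same order, from 1326 ± 145 RPM in HF+CR to 599 ± 129 RPM in HF+Ex. miR-18a-5p did too, from 114 ± 31.4 to 78.8 ± 13.5 RPM, with every pair of neighbours overlapping. Its means in LF and LF+CR were almost level, at 84.92 and 84.79 RPM, and on the log2 scale LF+CR was at +0.02 against LF. For miR-20a-5p the sole neighbours without overlap were LF+CR (838 ± 104 RPM) and HF+Ex.

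The 2 GUGCAAA members were highest in LF, with miR-19a-3p at 1491 ± 365 RPM and miR-19b-3p at 9141 ± 1159 RPM. For miR-19a-3p, LF+Ex was almost level with LF, at 1490 RPM. Both members were lowest in HF+Ex, miR-19a-3p at 991 ± 172 and miR-19b-3p at 5678 ± 957 RPM. Neighbouring groups overlapped for miR-19a-3p, and for miR-19b-3p all did but LF+Ex (8918 ± 529.7 RPM) and HF+CR (7779 ± 560 RPM). miR-92a-3p was highest in HF+CR (2462 ± 721 RPM) and lowest in LF+CR (1432 ± 76.5 RPM), HF+Ex ranked 3 of 6 (2016 ± 504 RPM), and all its neighbours overlapped.

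Coherence within the cluster was then measured as the correlation of log2(RPM + 1) over the 18 libraries for the 15 member pairs, with permutation p-values (100000 resamples, two-sided) adjusted over the 15 pairs. Over all libraries the values were permuted without regard to group, so these p-values also take in differences between the groups. The median r was 0.42 over all libraries, against 0.16 for all 61425 pairs of tested miRNAs. The closest pair was miR-17-5p with miR-20a-5p (r = 0.91, rho = 0.89, permutation p = 1e-05 for r, the smallest that the resamples can give, adjusted p = 0.00015). Next came miR-19a-3p with miR-19b-3p (r = 0.79, rho = 0.66, permutation p = 0.00021 for r, adjusted p = 0.00158). The 2 pairs of highest r were thus the 2 pairs that share a seed. They are also the member pairs closest in sequence, with 2 and 1 substitutions. The part of read assignment between such near-identical entries was not tested.

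Besides these 2, 4 pairs had an adjusted p under 0.05, each with r between 0.62 and 0.68. They were made of miR-17-5p, miR-18a-5p, miR-19a-3p and miR-20a-5p. Of all pairs of tested miRNAs, 5.83% to 8.86% had a higher r than these 4. That share was 0.101% for miR-17-5p with miR-20a-5p and 1.66% for miR-19a-3p with miR-19b-3p. Over all libraries, 65.8% of all pairs had an r above 0. Without the 2 libraries farthest from the median on the x axis (HF+Ex 2 and 3), r of miR-17-5p with miR-20a-5p was 0.82, and without LF 1 and HF+Ex 1, r of miR-19a-3p with miR-19b-3p was 0.57. miR-92a-3p stood outside: its 5 pairs had r between -0.18 and 0.09, with adjusted permutation p-values of 0.699 to 0.929. Without its pairs the median r of the other 10 was 0.62.

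**Figure D4:**
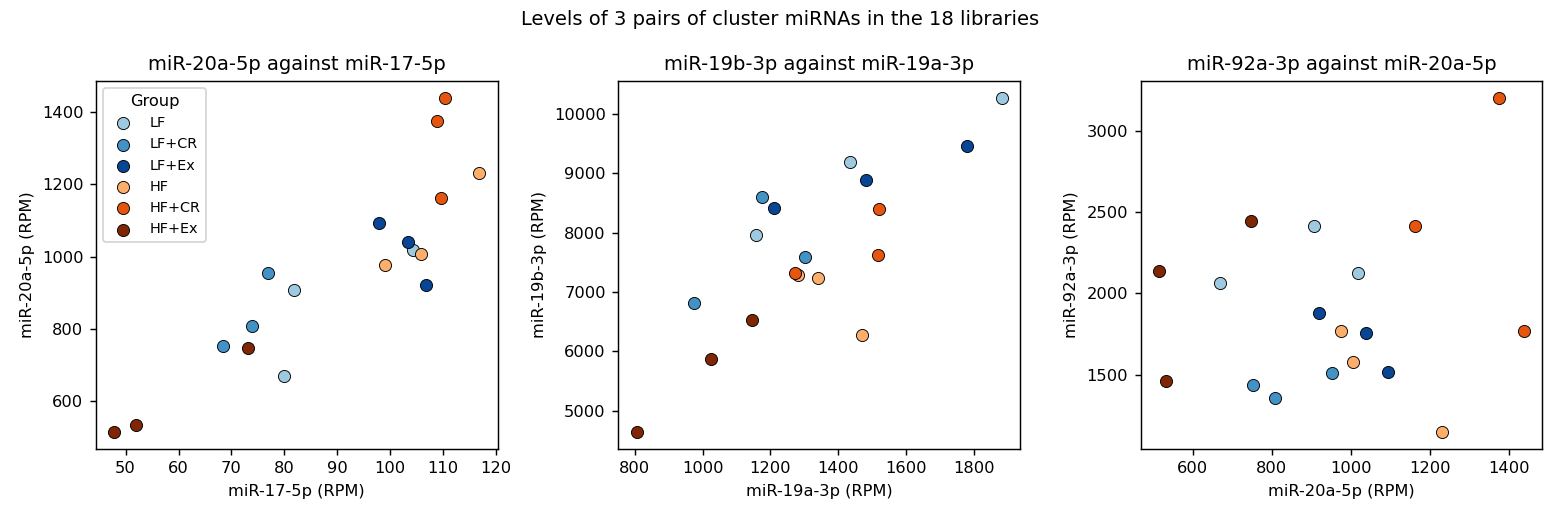
Levels in RPM of 3 pairs of members in the 18 libraries, coloured by group. miR-17-5p and miR-20a-5p lie along a line with the HF+Ex libraries at its low end (r = 0.91), miR-19a-3p and miR-19b-3p along a looser one (r = 0.79), and miR-20a-5p and miR-92a-3p show none (r = 0.09).

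The pooled values hold the differences between groups, so the correlations were computed again after each group's mean was removed, with permutation within groups. The median r of the 15 pairs then was 0.01, against 0.15 for all pairs of tested miRNAs, and 8 of 15 pairs were above 0, against 65.3% of all pairs. The median rested on HF+Ex 1, without which it was 0.28, and on the scaling, with 0.26 after RPM was rescaled. Over the 10 pairs without miR-92a-3p it was 0.28. The 2 same-seed pairs remained the highest: miR-17-5p with miR-20a-5p at r = 0.77 (rho = 0.75, permutation p = 0.00654, adjusted p = 0.0514) and miR-19a-3p with miR-19b-3p at r = 0.74 (rho = 0.68, permutation p = 0.00686, adjusted p = 0.0514). No pair passed an adjusted p of 0.05, and 3 pairs had an unadjusted p under 0.05, the third being miR-17-5p with miR-18a-5p (r = 0.59, permutation p = 0.0192, adjusted p = 0.0961).

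Leaving out each library in turn left r at 0.65 to 0.83 for miR-17-5p with miR-20a-5p and at 0.68 to 0.84 for miR-19a-3p with miR-19b-3p. Across seeds the within-group values went both ways, down to -0.40 for miR-17-5p with miR-19b-3p, and that pair moved to 0.15 with rescaled RPM. miR-17-5p with miR-18a-5p moved from 0.59 to 0.21 with rescaled RPM, while the same-seed pairs moved to 0.87 and 0.79. Members share libraries and the RPM scale, so these r values describe covariation of the deposited levels.

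**Figure D5:**
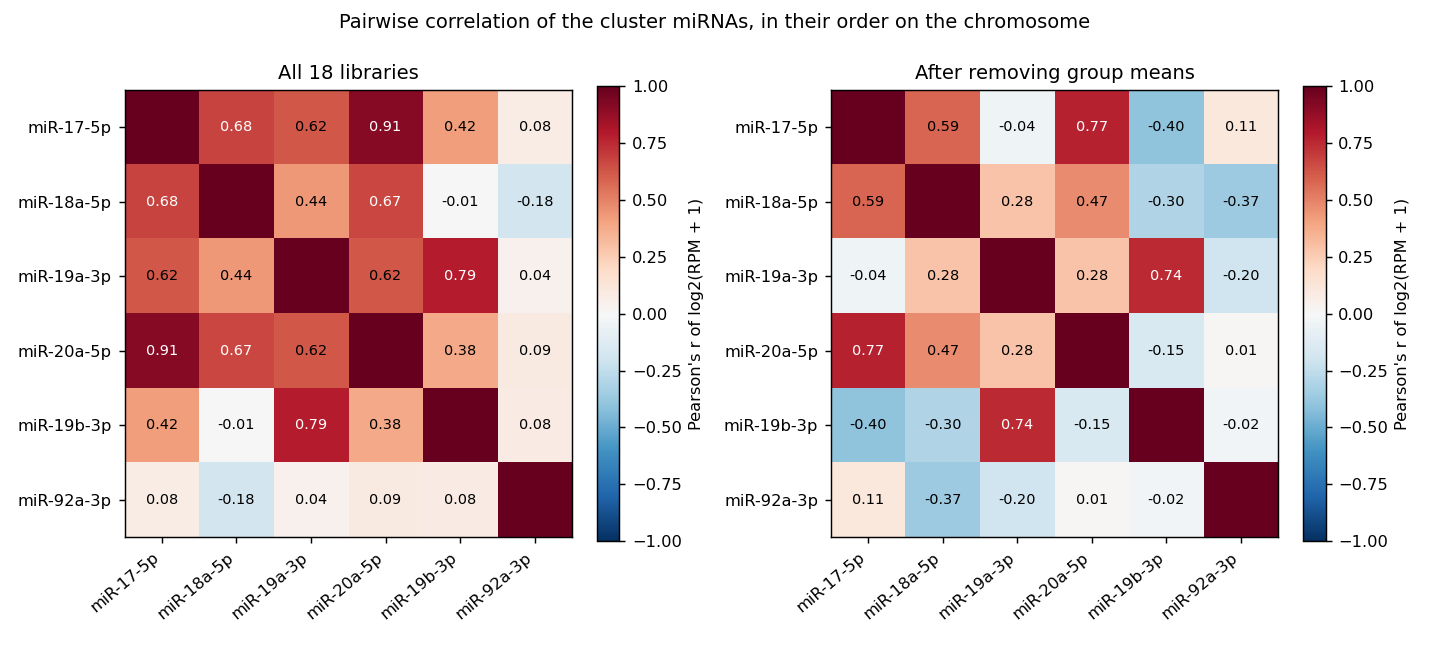
Pearson's r of log2(RPM + 1) for each pair of members in chromosomal order, over all 18 libraries (left) and after group means were removed (right). The cells of the same-seed pairs keep high values in both panels (0.91 and 0.77, 0.79 and 0.74), and the row of miR-92a-3p runs from -0.18 to 0.09 on the left and from -0.37 to 0.11 on the right.

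Neighbouring hairpins on the transcript did not give the 2 pairs of highest r, over all libraries or within groups. Mir19b-1 and Mir92-1 are the closest neighbours, 35 bp apart. The mature sequences miR-19b-3p and miR-92a-3p are also encoded on chromosome X, so their values cannot be assigned to these 2 hairpins. Their r was 0.08 over all libraries and -0.02 within groups, and 0.29 and 0.33 with rescaled RPM. The products of Mir20a and Mir19b-1, 41 bp apart, had r = 0.38 over all libraries and -0.15 within groups. Those of Mir18 and Mir19a, 53 bp apart, had 0.44 and 0.28, and those of Mir19a and Mir20a, 75 bp apart, 0.62 and 0.28. Mir17 and Mir18, 96 bp apart, gave 0.68 and 0.59, which ranked 3 of the 15 pairs in both. The Mir17 and Mir20a hairpins, which gave the highest r, have 2 other hairpins between them.

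Set against the other 350 tested miRNAs within groups, the closest of all to miR-19b-3p was miR-19a-3p, and miR-19b-3p ranked 3 for miR-19a-3p. For miR-20a-5p the closest member, miR-17-5p, ranked 3, and for miR-17-5p the closest member, miR-20a-5p, ranked 7. For miR-18a-5p the best other member ranked 73 (miR-17-5p, r = 0.59), and for miR-92a-3p it ranked 129 (miR-17-5p, r = 0.11). Outside the cluster and its paralogs, the 5 miRNAs with the highest mean r to the 6 members were miR-5117-5p (0.37), miR-146b-5p (0.36), miR-421-3p (0.35), miR-374b-5p (0.35) and miR-96-5p (0.35), over 18 libraries. None of these 5 was above 0.35 with miR-92a-3p, and miR-5117-5p was at 0.83 with miR-18a-5p and -0.28 with miR-19b-3p.

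Ratios of members inside a library do not depend on the scaling of that library. The ratio of miR-20a-5p to miR-17-5p was 10.6 ± 1.24 (SD, n = 18), from 8.38 to 13.04, and that of miR-19b-3p to miR-19a-3p was 5.89 ± 0.767, from 4.27 to 7.32. The ratio of miR-92a-3p to miR-20a-5p varied more, from 0.931 to 4.16. It was 2.74 to 4.16 in HF+Ex, 0.931 to 1.82 in HF, 1.38 to 2.04 in LF+Ex and 2.09 to 3.08 in LF, so that HF+Ex lay above HF, and LF+Ex below LF, without overlap. An exact two-sided permutation test of 3 libraries against 3 cannot go below 0.1, the value found for both comparisons (0.25 after adjustment over 20 comparisons of 4 ratios). The same ratio also did not overlap in HF against LF and in LF+CR against LF, with the same p-values. The ratio of miR-20a-5p to miR-17-5p in HF+Ex, 10.2 to 10.8, overlapped that in HF, 9.50 to 10.5, while in HF+CR, at 10.6 to 13.04, it lay above HF without overlap. The ratio of miR-19b-3p to miR-19a-3p lay above HF in HF+Ex, at 5.70 to 5.76 against 4.27 to 5.69. Both of these same-seed differences had an exact permutation p of 0.1 (0.25 after adjustment).

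The opposite arms of the hairpins were measured as well, since both arms come from the same precursor. miR-17-3p was as abundant as miR-17-5p, at 106 RPM on average (76.5 to 154), while miR-20a-3p (13.2 RPM) and miR-92a-1-5p (19.1 RPM) were far below their partners, at mean ratios of 76.0 and 102 for the dominant arm over the other. miR-18a-3p, miR-19a-5p and miR-19b-1-5p averaged 2.11, 1.48 and 1.98 RPM and did not pass the filter on low values. None of the 3 arms tested was called in any comparison.

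The ratio of the 2 arms of Mir17 ranged from 0.621 to 1.04 over the 18 libraries. miR-17-5p over miR-17-3p was 0.900 to 1.04 in HF, 0.621 to 0.680 in HF+Ex and 0.713 to 0.795 in HF+CR, so that both regimens lay below HF without overlap. The exact two-sided permutation p was 0.1 for each, the smallest that 3 against 3 allows (0.25 after adjustment over 20). In LF+Ex the ratio was 0.961 to 0.990 and overlapped the 0.819 to 0.985 of LF. In LF+CR it was 0.682 to 0.884, which overlapped LF and spanned the HF+CR range. In HF+Ex against HF, where miR-17-5p fell, miR-17-3p differed by -0.34 (SE 0.18, limma adjusted p = 0.600) with overlapping libraries, and in HF+CR against HF it was at +0.40 (SE 0.18, limma adjusted p = 0.314) while miR-17-5p was at +0.03. Within groups miR-17-3p correlated with miR-17-5p at r = 0.80.

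Mammals carry 2 paralogs of the cluster, miR-106a-363 on chromosome X and miR-106b-25 in an intron of Mcm7, which hold relatives of the same seeds. The X cluster was barely detected: miR-20b-5p averaged 9.12 RPM, miR-106a-5p 1.82, miR-363-3p 1.08, miR-18b-5p 0.0302 and miR-92a-2-5p 0.0144 RPM, and only miR-20b-5p passed the filter. This bears on miR-19b-3p and miR-92a-3p, whose mature sequences are also encoded on the minus strand of X by Mir19b-2 (chrX:52741991-52742013) and Mir92-2 (chrX:52741854-52741874), so that the deposited values cannot be assigned to 1 locus, and how reads shared by both loci were counted is not given in the sources used here. The passenger arm miR-92a-2-5p, which only the X copy makes, was above 0 in 1 of 18 libraries, against all 18 for miR-92a-1-5p of the chromosome 14 copy.

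The miR-106b-25 cluster was expressed, with miR-93-5p at 3421 RPM, miR-25-3p at 671 RPM and miR-106b-5p at 123 RPM on average. miR-106b-5p, which has the AAAGUGC seed, was lower in all HF+Ex libraries than in all HF libraries, with a log2 difference of -0.75 (SE 0.26) that did not pass (limma adjusted p = 0.352), and its exercise effect differed between diets by -0.95 (SE 0.37, limma adjusted p = 0.216). miR-93-5p, with the same seed, was at -0.21 (SE 0.20, limma adjusted p = 0.882) in HF+Ex against HF. Within groups miR-106b-5p had r = 0.79 with miR-17-5p and 0.63 with miR-20a-5p, and miR-93-5p had 0.19 and 0.10. Among the members, the highest r of both was with miR-18a-5p, which has another seed, at 0.83 for miR-106b-5p and 0.76 for miR-93-5p. Of the miR-92 seed relatives, miR-25-3p had r = 0.40 with miR-92a-3p, and miR-32-5p had -0.36 with miR-92a-3p and 0.80 with miR-19a-3p.

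miR-32-5p, another relative with the AUUGCAC seed, was higher on the HF diet averaged over regimens (log2 difference +0.54, SE 0.15, limma adjusted p = 0.0209), and at +0.34 with an adjusted p of 0.125 once RPM was rescaled. miR-92a-3p, which has that seed, was at +0.12 (SE 0.13, limma adjusted p = 0.523) in the same comparison.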

How the data were processed

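The authors deposited an RPM for each of 758 mature mouse miRNAs in 18 liver libraries, per the file headers. Reads were placed on mm10, per the submitters' processing notes. How they were aligned, counted and annotated, and where reads with several matches went, is not given in the sources used here. RPM is a share of a library, so a fold is relative to all other miRNAs. Depth was read from the RPM steps: 100% of values were whole multiples (tolerance 0.001 reads) of a step taken as 1 read, and no listed value above 0 was under 2 reads. Depth ranged from 2.38 to 10.5 megareads, and reads carry no molecular identifiers.

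Sample titles gave the groups and replicate numbers. The 351 miRNAs with at least 5 RPM in at least 3 libraries were tested on log2(RPM + 1) with limma 3.58.1 (R 4.3.3), all 18 libraries in 1 fit, 1 coefficient per group, an intensity trend, two-sided, adjusted by Benjamini-Hochberg. The pseudocount of 1 RPM understates changes of low miRNAs. All 6 members passed the filter. The fit and the correlations were tested on simulated data. Named were the 6 members, their opposite arms, paralogs and seed relatives, and the 5 other miRNAs most alike by mean within-group r. The members and lists were chosen with earlier results of these data known. Alternatives were other pseudocounts and filters, rescaling by size factors, no trend, fits of the compared groups only, the replicate number as a block, omission of each library and, added after seeing the data, voom weights on implied reads and omission of 2 sets of libraries. Of 23 miRNA names looked up in the RefSeq tables, 22 matched.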

Additional observations from a re-analysis of the deposited data

Results flagged for a closer look

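The exercise effect on miR-17-5p differed between the diets by an interaction test: the log2 difference of HF+Ex against HF minus that of LF+Ex against LF was -1.12 (SE 0.24, limma adjusted p = 0.0286). The 2 effects were -0.90 on the HF diet, where all 3 HF+Ex libraries lay below the 3 HF libraries, and +0.22 on the LF diet, where the libraries overlapped. The call was kept in 2 of the 12 omissions of a single library of these groups.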

How the results depend on the processing

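Of the 4 member differences called, none changed sign under any alternative run, the omission of each of the 18 libraries included. The number of members called in HF+Ex against HF, 2 as reported, was 1 with no filter, with rescaled RPM, without the intensity trend and with voom weights, 0 with only the compared groups in the fit, and 0 to 2 over single omissions. In the settings with 1 call miR-20a-5p lost it, with a limma adjusted p of 0.0528 (voom) to 0.111 (rescaled RPM). It kept its call in 4 of the 18 omissions and miR-17-5p in 12, but each in only 1 of the 6 that left out an HF or HF+Ex library. For the difference of the Ex effect, 1 as reported, the number was 2 with a filter of 50 RPM, with rescaled RPM, without LF 1 and HF+CR 3 together and without the 3 shallowest libraries, and 0 to 2 over single omissions. For the HF diet it was 0 without the 3 shallowest libraries. For the difference of the CR effect it was 0 to 1 over single omissions, the 1 being miR-92a-3p without HF+CR 2 or HF+Ex 2.

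Values that changed sign were called in neither fit, and the cause was not tested. With rescaled RPM, the HF diet values of miR-17-5p, miR-18a-5p, miR-20a-5p and miR-92a-3p were -0.20, -0.048, -0.14 and -0.082, and the CR difference of miR-18a-5p was -0.27. With voom weights the HF diet value of miR-17-5p was -0.0072. Without LF 1 and HF+CR 3, miR-19a-3p was at +0.079 in HF against LF, and miR-18a-5p at -0.16 in HF+CR against HF and -0.38 in the CR difference. Without the 3 shallowest libraries the HF diet values of miR-17-5p and miR-92a-3p were -0.052 and -0.074. Over single omissions miR-19a-3p in HF against LF ran from -0.27 to 0.079, miR-17-5p and miR-18a-5p in HF+CR against HF from -0.021 to 0.097 and from -0.16 to 0.24, miR-17-5p for the HF diet from -0.056 to 0.045, and the CR difference of miR-18a-5p from -0.19 to 0.22.

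The within-group median correlation of 0.01 ran from -0.062 to 0.28 over single omissions and was -0.0013 without LF 1 and HF+CR 3, 0.26 with rescaled RPM and 0.295 without the 3 shallowest libraries. Same-numbered libraries did not deviate together (14 of 45 pairs with a correlation over 0.1, 7 of 18 libraries closest to their own number), so replicate numbers were not taken as pairs. With the replicate block the within-group median was -0.14, and no member's call and no count of members called changed. Depth limits miR-17-5p and miR-18a-5p most, with 180 and 232 implied reads in the shallowest cases.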
